A study of Mus musculus with 40 samples.

Results

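The B cell and plasma cell genes examined here are 6 genes of the mouse, Ms4a1, Cd79a, Cd79b, Pax5, Jchain and Mzb1, which were chosen by symbol from the 54087 genes of the count table. All 6 were found in the table, and all 6 had enough reads over the 40 tumors to enter the tests. Mzb1 no longer had enough once 5 tumors with high levels, described below, were left out. Their reads were counted in tumors of CT26, a colon carcinoma line of the mouse, from 40 BALB/c mice, 5 in each of 8 treatment groups. The mice were 6 to 12 weeks old, received 1000000 CT26 cells under the skin, were given mAbs i.p. 3 times, on day 6, day 9 and day 12, and had their tumors collected on day 13.

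All groups thus shared the strain, the tumor line and the days of injection, and differed in the mAbs. The isotype control group received motavizumab, an antibody with no target in the mouse. Anti-GARP:TGF-β1 is clone 58A2, which blocks the release of active TGF-β1 from the GARP:TGF-β1 complexes of regulatory T cells, and was given as a mouse IgG2a that binds Fc receptors (WT) or as an Fc-dead form (FcD). Anti-TGF-β is clone 1D11, which neutralizes all TGF-β isoforms, and anti-PD-1 was an Fc-silent antibody. The other 3 groups received anti-PD-1 and 1 further mAb, and are written as WT + anti-PD-1 and FcD + anti-PD-1 where the further mAb was a form of 58A2, and as anti-TGF-β + anti-PD-1 for 1D11. RNA came from pieces of whole tumors, so fewer B cells in a piece and less RNA per B cell cannot be told apart.

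B cells recognize antigen through surface immunoglobulin, and the signal enters the cell through a pair of chains, CD79A and CD79B, which are encoded by Cd79a and Cd79b. Pax5 is the transcription factor that holds cells in the B lineage, and Ms4a1 encodes CD20, a membrane protein of mature B cells. Activated B cells can turn into plasma cells, which switch off Pax5 and Ms4a1 and secrete antibody. Jchain encodes the joining chain that links IgM and IgA into polymers, and Mzb1 encodes an endoplasmic reticulum protein that helps immunoglobulin to be assembled and secreted. B cells gather in lymph nodes and in tertiary lymphoid structures, where stromal cells draw them in with chemokines.

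On GRCm38, Ms4a1 (ENSMUSG00000024673.9) lies at chr19:11249675-11266241 on the minus strand, Cd79a (ENSMUSG00000003379.7) at chr7:24897381-24902197 on the plus strand and Cd79b (ENSMUSG00000040592.11) at chr11:106311341-106314762 on the minus strand. Pax5 (ENSMUSG00000014030.15) lies at chr4:44524757-44710487 and Jchain (ENSMUSG00000067149.6) at chr5:88519809-88527891, both on the minus strand. Exons of Pax5 share 636 bases with a transcript of the opposite strand, 5730488B01Rik, that is not analysed here, and the strand setting of the counting is not given in the sources used here.

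Of the 6 genes, RefSeq (GRCm38.p6) gave a promoter window for Cd79a, Pax5 and Jchain. Each window runs from 250 bases before to 50 bases after the RefSeq start of the gene. The windows of Cd79a at chr7:24897247-24897546 (plus strand) and Jchain at chr5:88527848-88528147 (minus strand) are printed 5′ to 3′, one for each of the cell stages, with capitals on the E-box CANNTG, which E proteins of the B lineage can bind, and on the ETS core GGAAGT.
Cd79a: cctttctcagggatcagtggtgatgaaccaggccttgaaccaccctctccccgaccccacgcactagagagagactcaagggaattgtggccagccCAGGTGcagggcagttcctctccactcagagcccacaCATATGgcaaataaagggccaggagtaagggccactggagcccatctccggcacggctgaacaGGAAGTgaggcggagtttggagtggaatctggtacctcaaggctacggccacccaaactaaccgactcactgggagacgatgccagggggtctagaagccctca
Jchain: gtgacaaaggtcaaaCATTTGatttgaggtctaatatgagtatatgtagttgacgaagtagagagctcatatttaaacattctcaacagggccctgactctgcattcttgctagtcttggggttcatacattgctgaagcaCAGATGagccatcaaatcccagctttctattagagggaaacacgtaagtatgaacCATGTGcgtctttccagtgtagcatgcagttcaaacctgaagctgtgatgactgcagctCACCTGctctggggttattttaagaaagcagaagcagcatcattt
The octamer ATGCAAAT, EBF1 half-sites CCCNNGGG, the E-box and the ETS core were searched on both strands. The Cd79a window held 2 E-boxes and 1 ETS core, the Jchain window held 4 E-boxes, and the Pax5 window held 1 E-box. Neither the octamer nor the EBF1 half-sites occurred in these 3 windows. Of all 32851 promoter windows of this length, 72.3% held the E-box, 23.8% the ETS core, 13.7% the EBF1 half-sites and 1.74% the octamer, so that an E-box is no mark of these genes.

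Between 11931730 and 20680548 reads were counted per tumor (median 14030511), and a floor of 3 reads corresponds to 0.141 to 0.251 CPM (counts scaled to 1000000 reads of a library), with counting error only. Levels are given as CPM on library sizes normalized with TMM. Libraries are named by the number in their label, and numbers 41 to 60 and 61 to 80 form 2 parts that differ in 248 of the 14760 genes tested (1.68%), with 2 or 3 mice of every group in each part. None of the 6 genes was among these 248 (edgeR's quasi-likelihood test, Benjamini-Hochberg adjusted).

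The 6 genes were rare transcripts in most tumors. Over the 40 tumors, they had 522 (Mzb1) to 2589 (Jchain) reads in all, and the median tumor held 10.5 reads of Cd79a and 5.5 reads of Ms4a1. Ms4a1 had no read in 7 tumors, which allows up to 3 reads there, and Cd79a had none in 1 tumor. Cd79b, Pax5, Jchain and Mzb1 were detected in all 40 tumors, Mzb1 with at most 3 reads in 14 of them. Per kilobase of exon, the median level was highest for Cd79b (1.68 CPM per kb), followed by Jchain (0.713), Cd79a (0.499), Mzb1 (0.304), Pax5 (0.121) and Ms4a1 (0.0624).

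A set of 5 tumors, each of a different treatment group, carried most of these reads. They are library 42 (anti-GARP:TGF-β1 WT), library 47 (anti-PD-1), library 48 (anti-TGF-β), library 68 (anti-TGF-β + anti-PD-1) and library 70 (anti-GARP:TGF-β1 FcD). The isotype control, WT + anti-PD-1 and FcD + anti-PD-1 groups held none of them. The highest 5 tumors of a gene held 69.8% of all Cd79a reads, 69.1% of Ms4a1, 69.0% of Jchain, 64.9% of Mzb1, 49.7% of Cd79b and 38.1% of Pax5. For Cd79a, Ms4a1, Pax5 and Mzb1, the highest 5 were exactly these libraries, while 4 of them were among the highest 5 for Cd79b and 3 for Jchain. Library 68 was the highest of the 40 tumors for all 6 genes, and its level was 6.46 (Pax5) to 46.9 (Jchain) times the median.

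**Figure D1:**
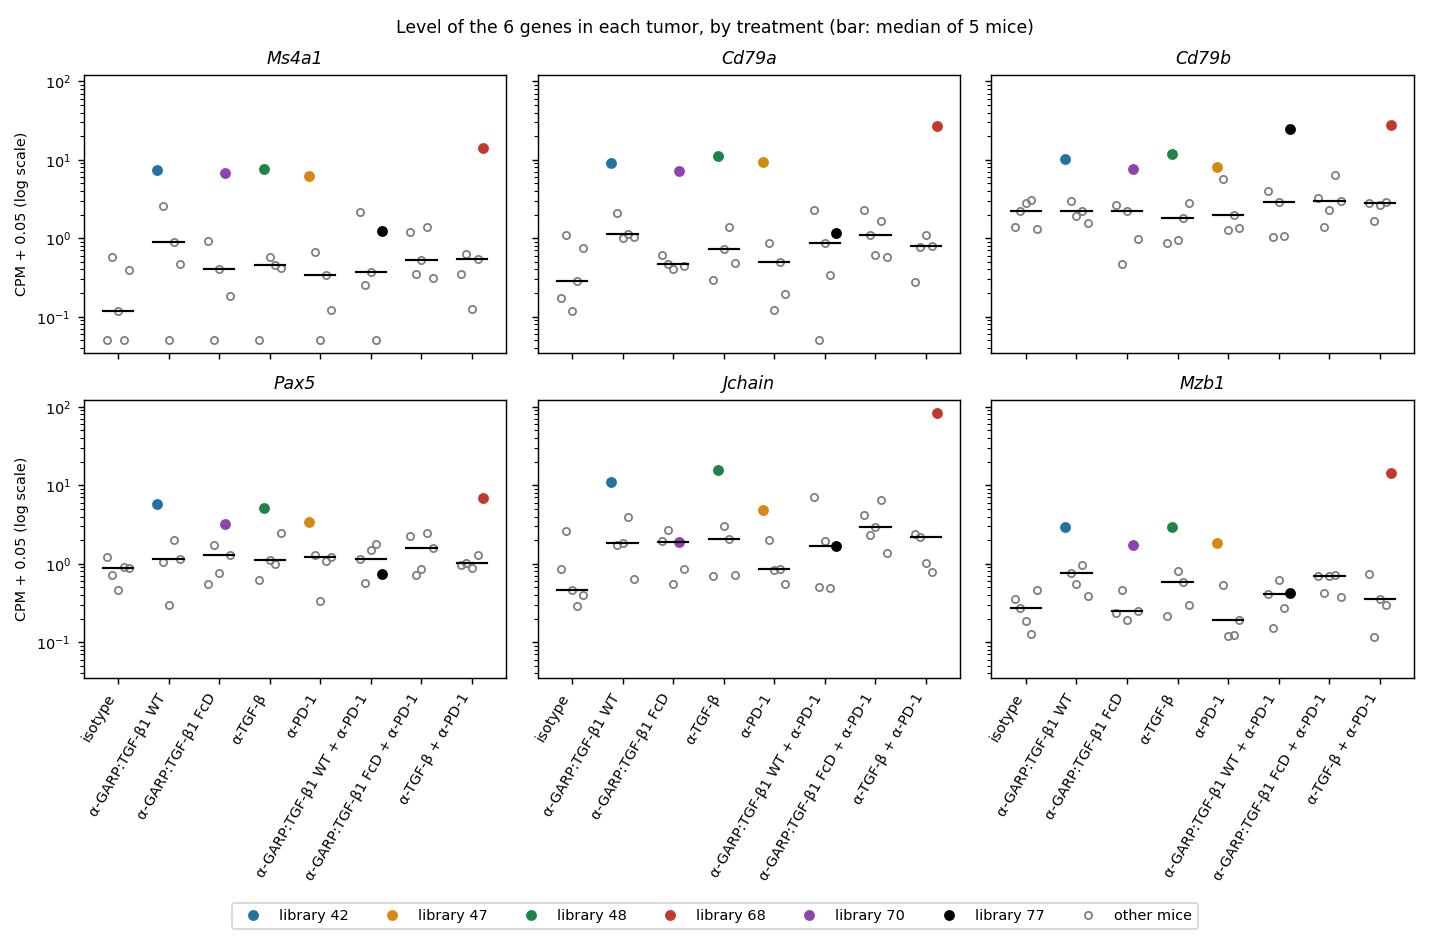
Level of each of the 6 genes in every tumor (vertical axis: CPM plus 0.05, log scale) by treatment group (horizontal axis, 5 mice each); circles are single mice, bars are medians, and 6 libraries are coloured. Each of libraries 42, 47, 48, 68 and 70 stands above the other 4 mice of its group for 5 or 6 of the genes, library 70 being the one with 5.

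Cd79a shows this most plainly. In the isotype control group, Cd79a stood at 0.124, 1.05, 0.0694, 0.236 and 0.693 CPM in libraries 46, 51, 63, 74 and 78. In the anti-TGF-β + anti-PD-1 group, libraries 53, 57, 62 and 66 held 0.227, 0.714, 1.06 and 0.741 CPM, and library 68 held 27.0 CPM. Thus 4 of the 5 mice lay about where the control mice lay, and a single mouse held 90.8% of the group's sum. With anti-TGF-β alone, Cd79a was 0.245, 10.99, 0.684, 1.35 and 0.429 CPM in libraries 43, 48, 59, 72 and 79. With anti-PD-1 alone, it was 9.23, 0.828, 0.0713, 0.442 and 0.144 CPM in libraries 47, 52, 54, 67 and 76. Again 1 mouse stood apart in each group, and the rest overlapped with the isotype control.

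The anti-GARP:TGF-β1 WT group had Cd79a levels of 9.13, 2.03, 0.946, 1.08 and 1.00 CPM in libraries 42, 49, 56, 65 and 73. In the FcD group, they were 0.557, 0.418, 0.354, 7.10 and 0.398 CPM in libraries 41, 58, 61, 70 and 75. The FcD group without library 70 was the least variable of all, with 0.432 ± 0.0875 CPM (SD, n = 4). In tumors treated with WT + anti-PD-1, the levels were 2.26, 0, 0.822, 0.292 and 1.12 CPM in libraries 45, 55, 64, 69 and 77. With FcD + anti-PD-1, they were 2.23, 1.06, 0.561, 1.62 and 0.531 CPM in libraries 44, 50, 60, 71 and 80. These 2 groups, which held none of the 5 high tumors, had medians of 0.822 and 1.06 CPM, against 0.236 CPM in the isotype control, and their mice overlapped with the control mice.

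Ms4a1, the gene of CD20, followed Cd79a. It ran from 0 to 2.55 CPM in 35 tumors, with a median of 0.346 CPM, and stood at 6.13, 6.70, 7.41, 7.64 and 14.2 CPM in libraries 47, 70, 42, 48 and 68. The 2 sets of libraries did not overlap. The isotype control mice had 0, 0.523, 0.0694, 0 and 0.346 CPM, the lowest median of the 8 groups (0.0694 CPM), which is 1 read. In the other groups the median was between 0.295 CPM (anti-PD-1) and 0.850 CPM (anti-GARP:TGF-β1 WT), and each group overlapped with the control mice.

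Pax5 varied least. Its levels in the 5 high tumors were 3.18 (library 70), 3.40 (47), 5.07 (48), 5.76 (42) and 6.94 CPM (68), and the other 35 tumors ran from 0.252 to 2.43 CPM with a median of 0.990 CPM. Group medians ran from 0.831 CPM in the isotype control to 1.53 CPM with FcD + anti-PD-1, and all groups overlapped with the control mice. Pax5 was thus detected in every tumor at a low level whether or not Cd79a and Ms4a1 were, and in those 35 tumors its Pearson's r with Cd79a was 0.35 and Spearman's rho 0.23 (permutation p = 0.0432 and 0.175, adjusted over 15 pairs 0.0648 and 0.202).

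Jchain, a gene of plasma cells, spread furthest. In library 68 it reached 84.2 CPM (1251 reads), the highest value of any of the 6 genes in any tumor, while the 4 other mice of that group held 2.35, 2.14, 0.983 and 0.741 CPM. Libraries 48 and 42 followed with 15.5 and 10.9 CPM. Library 70, among the highest 5 for Cd79a, Ms4a1 and Pax5, held 1.83 CPM of Jchain, close to the 1.92 and 2.67 CPM of libraries 41 and 58 in the same group. In the isotype control group, Jchain was 0.804, 2.54, 0.417, 0.236 and 0.346 CPM. Library 45 of the WT + anti-PD-1 group had 7.001 CPM, with 0.462, 1.90, 0.438 and 1.62 CPM in libraries 55, 64, 69 and 77. With FcD + anti-PD-1, the levels were 4.18, 2.26, 2.89, 6.41 and 1.33 CPM in libraries 44, 50, 60, 71 and 80. This group had the highest median of the 8 (2.89 CPM), and 3 of its 5 mice exceeded every control mouse. Fat genes moved with this group: 6 of 6 had an unadjusted p under 0.05 against the isotype control (median log2 fold change 3.21), with sums of 89.0 to 1115 CPM against 30.6 to 151 CPM, as had 3 of 4 skin genes (median 3.19), with sums of 2.88 to 39.0 CPM against 3.77 to 5.42 CPM. Libraries 44 and 71, the highest 2 of the group for Jchain, were also its highest for Adipoq, a hormone gene of fat cells (38.2 and 83.5 CPM). Of other lists, 3 of 4 genes of CT26 epithelium (median 2.53) and 3 of 8 of plasmacytoid dendritic cells (median 0.88) had an unadjusted p under 0.05 there, all higher, against 16.6% of all genes, and library 71 was second of the 40 tumors for Siglech, a marker of the latter cells (6.27 CPM). The part of these tissues and cells in the Jchain level was not tested.

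Jchain in the remaining groups was as follows. With anti-GARP:TGF-β1 WT alone, libraries 49, 56, 65 and 73 had 1.70, 1.77, 3.94 and 0.584 CPM beside library 42. With anti-TGF-β alone, libraries 43, 59, 72 and 79 had 0.653, 2.96, 2.02 and 0.674 CPM beside library 48. With anti-PD-1 alone, library 47 had 4.8005 CPM, and libraries 52, 54, 67 and 76 had 1.93, 0.785, 0.811 and 0.505 CPM. Without the 5 high tumors, group means ran from 0.868 ± 0.959 CPM (SD, n = 5) in the isotype control to 3.41 ± 1.97 CPM (n = 5) with FcD + anti-PD-1.

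Mzb1, the other gene of antibody secretion, was the scarcest by reads. Its identifier is ENSMUSG00000024353.5, and its exons share 695 bases with Spata24 on the same strand, which had 3169 reads in all 40 tumors, so its level is uncertain. It held 14.4 CPM (214 reads) in library 68, 1.69 to 2.92 CPM in the other 4 high tumors and 0.0649 to 0.927 CPM in the 35 others, where 1 to 15 reads stand behind each value. In the isotype control mice it was 0.309, 0.224, 0.139, 0.0786 and 0.416 CPM, and it was 0.649, 0.377, 0.641, 0.674 and 0.332 CPM with FcD + anti-PD-1. The latter values overlapped with the control values, 3 of 5 lying above all of them.

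Library 68 differed from the other high tumors in the reads of Jchain and Mzb1 per Cd79a read. For each Cd79a read it held 3.12 Jchain reads and 0.534 Mzb1 reads, whereas libraries 42, 47, 48 and 70 held 0.257 to 1.41 Jchain reads and 0.192 to 0.320 Mzb1 reads. Ms4a1 went the other way, with 0.526 reads per Cd79a read in library 68 and 0.664 to 0.943 in the other 4. Igkc, the constant region of the kappa light chain, stood at 314 CPM in library 68, against 15.4 to 59.3 CPM in the other 4. Tnfrsf17 and Xbp1, also plasma cell markers, did not follow. Tnfrsf17, a survival receptor, was 1.62 CPM in library 68 and reached 1.87 CPM among the 5 high tumors. Xbp1, a factor of the secretory pathway, ran from 120 to 148 CPM in the 5, within the 114 to 168 CPM of the others. The Mzb1 ratio is as uncertain as the Mzb1 level, given the bases shared with Spata24. All these ratios are of single tumors, and no test of them was made.

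Cd79b did not always go with its partner chain. In libraries 42, 47, 48, 68 and 70 it stood at 10.2, 7.98, 11.8, 27.4 and 7.64 CPM, with 0.864 to 1.11 reads for each Cd79a read. Across the 35 tumors with more than 2 Cd79a reads, the median was 2.27 Cd79b reads per Cd79a read. Library 77 of the WT + anti-PD-1 group held 391 Cd79b reads (24.3 CPM) beside 18 Cd79a reads, a ratio of 21.7, and the 4 other mice of its group held 3.94, 0.976, 2.85 and 1.02 CPM of Cd79b. In the same tumor, Ms4a1 (1.18 CPM), Pax5 (0.685 CPM), Jchain (1.62 CPM) and Mzb1 (0.373 CPM) were within the range of the other 34 tumors outside the 5 high ones. Library 77 was also the highest of all 40 tumors for Ptprc (CD45, on all leukocytes; 782 CPM against a median of 140), for the sum of 8 T cell genes (308 CPM), for Ighm (219 CPM), and for Cd22, a B cell inhibitory receptor (18.7 CPM). It held 0.0311 Cd79b reads per Ptprc read, close to the 0.0317 of library 48 and above the other 34 tumors outside the 5 high ones, of which library 62 had the most (0.0274). The median was 0.0147 and the highest value 0.187, in library 68. The part of other leukocytes in the Cd79b of library 77 was not tested.

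**Figure D2:**
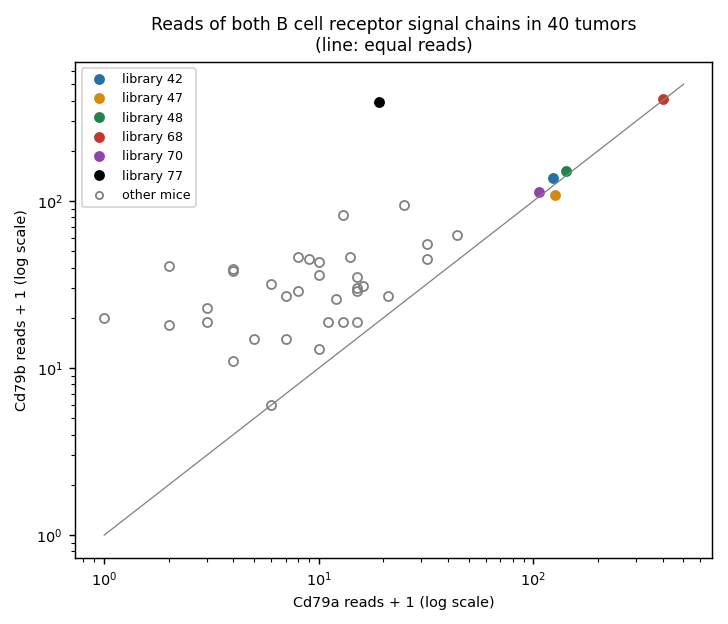
Cd79b reads plus 1 against Cd79a reads plus 1 in each of the 40 tumors (both axes in log scale), with a line at equal reads. Libraries 42, 47, 48, 68 and 70 lie on the line, library 77 lies far above it with 391 Cd79b and 18 Cd79a reads, and most other tumors lie above it.

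The 5 high tumors were also the 5 highest for genes of lymph node stroma. Of Ccl21a and Ccl19, chemokines that draw lymphocytes and dendritic cells into lymph nodes, Glycam1 and Madcam1, ligands for homing lymphocytes on the vessels of lymphoid tissue, and Clec4g, the summed level was 44.9 CPM in library 68, 11.4 in library 70, 8.64 in library 47, 8.38 in library 42 and 3.12 in library 48. Genes of the list that lymphocytes carry themselves, such as Cr2, were left out of this sum. In the other 35 tumors it ran from 0 to 1.42 CPM with a median of 0.0834 CPM. The 2 sets did not overlap, and 4 or 5 of the 5 stroma genes were detected in each high tumor, against a median of 1 in the others. Ccl21a had 23 to 240 reads in each of the 5 and at most 15 in the rest, and Glycam1 had 1 to 381 reads in the 5 and up to 9 in the 35 others, 28 of which were at 0, so that single stroma genes overlapped. The part of lymph node tissue in the levels of the 6 genes was not tested.

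Other cell types did not rank these tumors the same way. The sum of 8 T cell genes was 25.8 to 157 CPM in the 5 high tumors and 20.2 to 308 CPM in the 35 others, with library 48 at rank 2 and library 47 at rank 38 of 40. For 6 fat genes the 5 tumors held ranks 2, 3, 6, 30 and 33, and for Ptprc ranks 2, 14, 17, 19 and 40. Plasmacytoid dendritic cells can also transcribe Jchain and Mzb1, and the sum of 8 genes of these cells was highest in library 68, with 901 CPM against 429 to 791 CPM in the 35 others and 386 to 559 CPM in the other 4. Most of that sum is Bst2 (282046 reads in the 40 tumors, against 1141 of Siglech), which many cell types transcribe. Siglech, a receptor that marks them, stood at 1.69, 2.02, 2.07, 4.04 and 6.55 CPM in libraries 70, 68, 47, 42 and 48, against a median of 1.51 CPM over the 40 tumors, and library 48 was the highest.

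**Figure D3:**
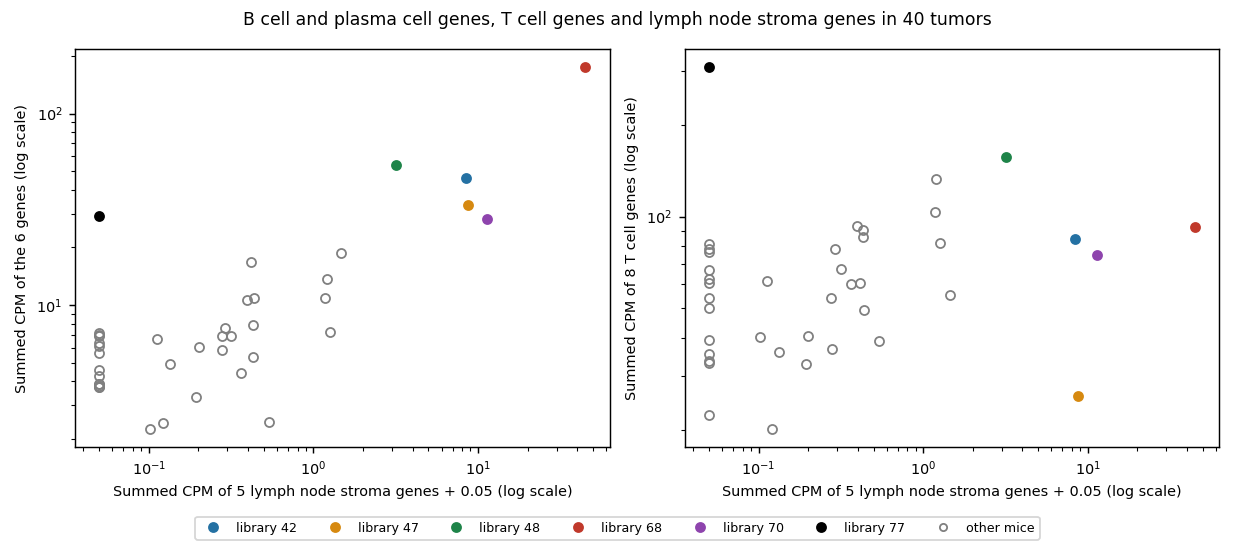
Summed CPM of the 6 B cell and plasma cell genes (left) and of 8 T cell genes (right) against the summed CPM of 5 lymph node stroma genes plus 0.05, all axes in log scale, with 1 circle per tumor. Libraries 42, 47, 48, 68 and 70 lie at the right of both panels, and they are high on the left panel but spread from 25.8 to 157 CPM on the right panel, while library 77 has no stroma reads.

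None of the 6 genes passed an adjusted p of 0.05 in any of the 7 comparisons with the isotype control (edgeR's quasi-likelihood test over 14760 genes, Benjamini-Hochberg adjusted). Of all genes tested, 0.00% were called in each of these comparisons, so the count of 0 says as much of the table as of the 6 genes. DESeq2's test also called 0 of the 6 there. Without the 5 stroma-high tumors, Mzb1 had too few reads to be tested, and 0 of the 5 other genes were called.

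Anti-TGF-β + anti-PD-1 gave the largest fold changes of the 6 genes. Against the isotype control, the log2 fold change was 4.38 for Jchain (SE 1.16, adjusted p = 0.108), 4.03 for Ms4a1 (SE 1.59, adjusted p = 0.177), 3.78 for Cd79a (SE 1.34, adjusted p = 0.154), 3.69 for Mzb1 (SE 1.05, adjusted p = 0.126), 1.83 for Cd79b (SE 0.88) and 1.45 for Pax5 (SE 0.70) in edgeR's test. At an unadjusted p under 0.05, 6 of 6 genes stood out, all higher, against 20.1% of all genes in either direction. Library 68 decided these values. Without it, the log2 fold changes were 0.84 (Jchain), 0.95 (Ms4a1), 0.66 (Cd79a), 0.42 (Mzb1), 0.23 (Cd79b) and 0.30 (Pax5), and adjusted p was at least 0.689. Leaving out library 53 of the same group moved the calls: without it, Jchain (log2 fold change 4.68, adjusted p = 0.0152), Mzb1 (3.97, adjusted p = 0.0189) and Cd79a (4.11, adjusted p = 0.0385) passed the threshold in edgeR's test, together with 2006 genes in all.

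Single mAbs gave smaller values. Median log2 fold changes of the 6 genes were 2.12 with anti-GARP:TGF-β1 WT, 2.11 for anti-TGF-β, 1.05 for anti-PD-1 and 1.00 with anti-GARP:TGF-β1 FcD, where the median of all genes was between 0.00 and 0.01. These comparisons share the 5 control mice. In the anti-PD-1 group, 4 of 4 skeletal muscle genes also had an unadjusted p under 0.05 (median 4.29), with a sum of 176 CPM in library 52 and 2.36 to 6.99 CPM in its other 4 mice, and library 52 held 0.828 CPM of Cd79a. The part of muscle tissue was not tested. Ms4a1 gave the largest value each time, 3.54 with anti-GARP:TGF-β1 WT, 3.20 for anti-TGF-β, 2.88 for anti-PD-1 and 3.08 with FcD, with standard errors of 1.59 to 1.61. At an unadjusted p under 0.05, 1 of 6 genes was higher with anti-GARP:TGF-β1 WT (Ms4a1; 0.969% of all genes) and 1 for anti-TGF-β (Jchain; 2.32%), and 0 for anti-PD-1 (0.955%) or FcD (0.474%).

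Each of these 4 groups held 1 high tumor, and control library 51 worked the other way for Jchain and Ms4a1. Without library 51, Jchain was at 2.999 rather than 2.10 with anti-GARP:TGF-β1 WT, 3.21 rather than 2.32 for anti-TGF-β, 1.72 rather than 0.82 with FcD and 1.92 rather than 1.02 for anti-PD-1, and Ms4a1 ran from 3.66 to 4.32. Leaving out library 42 took Ms4a1 with anti-GARP:TGF-β1 WT from 3.54 to 2.37 on the log2 scale, Cd79a from 2.70 to 1.56, Mzb1 from 2.14 to 1.36, Jchain from 2.10 to 1.197 and Cd79b from 0.82 to 0.03. Leaving out library 48 took Ms4a1 with anti-TGF-β from 3.20 to 0.81, Jchain from 2.32 to 0.85, Cd79a from 2.64 to 0.66, and Cd79b from 0.77 to -0.41. With anti-PD-1 alone, Ms4a1 went from 2.88 to 0.41 and Cd79a from 2.30 to -0.20 without library 47. With anti-GARP:TGF-β1 FcD alone, Ms4a1 went from 3.08 to 0.90, Cd79a from 2.03 to 0.02, and Cd79b from 0.40 to -0.43, without library 70.

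The combinations of anti-GARP:TGF-β1 with anti-PD-1 held none of the 5 high tumors. With the FcD form and anti-PD-1, the log2 fold change against the isotype control was 1.97 for Jchain (SE 1.12), 1.90 for Ms4a1 (SE 1.67), 1.47 for Cd79a (SE 1.36), 1.15 for Mzb1 (SE 1.12), 0.95 for Pax5 (SE 0.71) and 0.61 for Cd79b (SE 0.89), with adjusted p of 0.352 or more in edgeR's test. With the WT form and anti-PD-1, it was 1.98 for Ms4a1 (SE 1.65), 1.66 for Cd79b (SE 0.88), 1.37 for Jchain (SE 1.13), 1.03 for Cd79a (SE 1.38), 0.45 for Pax5 (SE 0.71) and 0.43 for Mzb1 (SE 1.16), with adjusted p of 0.273 or more. Single tumors decided some of the latter values: without library 77 Cd79b was at 0.055, and without library 45 Jchain was at 0.35, Cd79a at 0.36 and Ms4a1 at 1.18. Library 51, the highest control mouse for Jchain, Cd79a and Ms4a1, pulled the other way: without it, the values for Jchain were 2.27 with the WT form and 2.86 with the FcD form, and 5.30 with anti-TGF-β + anti-PD-1. In the same order, they were 2.75, 2.67 and 4.83 for Ms4a1, and 1.63, 2.07 and 4.40 for Cd79a. At an unadjusted p under 0.05, 0 of 6 genes stood out in either comparison, against 16.6% and 20.7% of all genes. With the 35 tumors in the model, 2 of 5 genes with the FcD form and 1 of 5 with the WT form had an unadjusted p under 0.05, as had 2719 and 3223 of all 14776 genes tested, and the lowest adjusted p was 0.156 and 0.151. In the same model, 2 of 5 genes, Ms4a1 (log2 fold change 2.37, SE 1.04) and Cd79a (1.56, SE 0.72), had an unadjusted p under 0.05 with anti-GARP:TGF-β1 WT alone, as had 178 of all genes, with an adjusted p of 0.997 (edgeR).

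**Figure D4:**
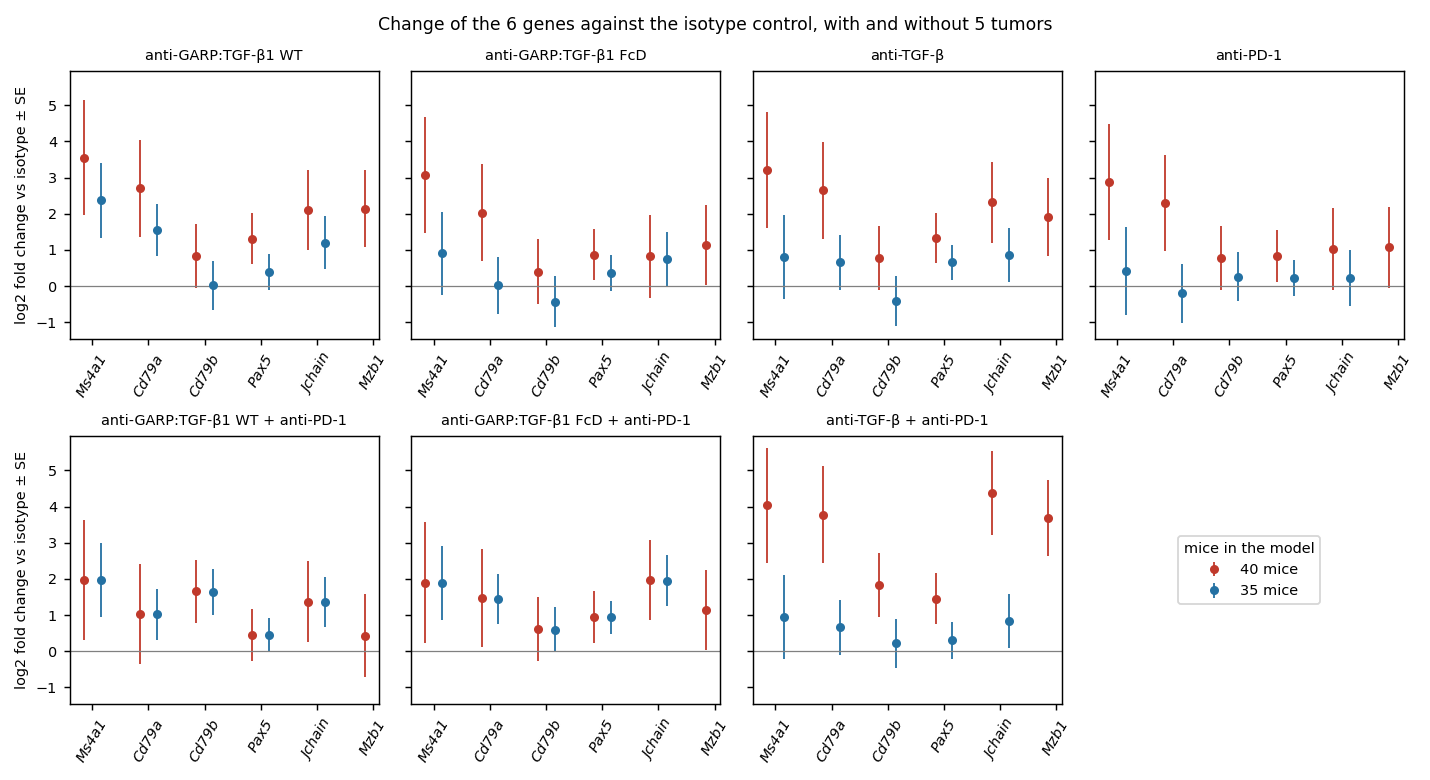
Log2 fold change of the 6 genes against the isotype control in each of the 7 treated groups (points, with standard errors as bars), in a model of all 40 mice and of the 35 mice without libraries 42, 47, 48, 68 and 70, where Mzb1 was not tested. Values are lower with 35 mice in the 5 groups that held 1 of these libraries, and hardly move in both combinations with anti-GARP:TGF-β1.

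Single-gene permutation tests, which do not rest on a model of counts, were made over every division of its 10 mice into groups of 5. Of 60 tests (6 genes in 10 comparisons), 0 passed an adjusted p of 0.05, and 4 had an unadjusted p under 0.05, where 0.00794 is the smallest p this design allows. Those 4 were Cd79a and Mzb1 with anti-GARP:TGF-β1 WT, and Jchain and Mzb1 with FcD + anti-PD-1, all against the isotype control. For Jchain with the latter, the difference in mean log2 CPM was 2.04 (SE 0.62, exact permutation p = 0.0238, adjusted over 60 tests 0.446), and it was 0.99 and 2.73 within the 2 parts of the library numbers. In all 60, the mice of both groups overlapped. Of all genes, the groups did not overlap for 0.19% with anti-GARP:TGF-β1 WT, 0.196% with FcD, 0.183% for anti-TGF-β, 0.271% for anti-PD-1, 2.97% with WT + anti-PD-1, 3.25% with FcD + anti-PD-1 and 3.03% with anti-TGF-β + anti-PD-1 against the isotype control, and for 0.664%, 0.996% and 1.88% with the 3 combinations against anti-PD-1.

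Adding a TGF-β mAb to anti-PD-1 was compared with anti-PD-1 alone, where library 47 is 1 of the 5 reference mice. No member was called (0 of 6) in these 3 comparisons, in which 0.00% (WT), 0.00% (FcD) and 0.00678% (anti-TGF-β) of all genes were. The median log2 fold change of the 6 genes was -0.51 for the WT form, -0.04 for the FcD form and 1.32 for anti-TGF-β. For the combination with anti-TGF-β, the log2 fold change was 3.36 for Jchain (SE 1.08, adjusted p = 0.176, edgeR) and 2.62 for Mzb1 (SE 0.97, adjusted p = 0.200), and without library 68 the values were -0.17 and -0.65. At an unadjusted p under 0.05 these were the 2 of 6 genes that stood out with anti-TGF-β (17.1% of all genes), and 0 of 6 did with the WT form (17.2%) or the FcD form (10.7%). Leaving out the 5 high tumors, library 47 among them, changed these counts. Jchain (1.74, SE 0.74) and Cd79a (1.66, SE 0.76) then stood out for the FcD form, 2 of 5 members (lowest adjusted p = 0.513, edgeR). Cd79b (1.39, SE 0.67, adjusted p = 0.464) did so for the WT form, and 0 of 5 for anti-TGF-β. Of all 14776 genes, 1248, 1579 and 1688 stood out in that order. For the WT form, Ms4a1 and Cd79a were lower by point estimate (-0.91 and -1.27) with library 47 among the reference mice and higher (1.56 and 1.21) without it.

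The average over partners gave no call either. With 20 mice that received anti-PD-1 against 20 that did not, 0 of 6 genes were called, against 0.589% of all genes, and 0 of 6 had an unadjusted p under 0.05 (23.4% of all genes). Without the 5 high tumors, 1 of 5 genes did, Cd79b (log2 fold change 0.88, SE 0.35, adjusted p = 0.0761, edgeR), as did 4846 of all 14776 genes. In a test of any difference among the 8 groups, 0 of 6 were called (0.0271% of all genes) and 2 of 6, Jchain (adjusted p = 0.123, edgeR) and Mzb1 (adjusted p = 0.140), had an unadjusted p under 0.05 (24.7% of all genes). DESeq2's likelihood ratio test called Jchain there (adjusted p = 0.0102), and 1256 of 31288 genes in all. For any difference without the 5 high tumors, 1 of 5 genes, Cd79b (adjusted p = 0.197, edgeR), had an unadjusted p under 0.05, as had 3400 of all 14776 genes. The interactions of anti-PD-1 with anti-GARP:TGF-β1 WT, FcD and anti-TGF-β gave 0 of 6 calls each (0.00% of all genes each), and 2 of 6, 0 of 6 and 0 of 6 genes with an unadjusted p under 0.05 (8.75%, 4.49% and 2.30% of all genes). The 2 were Cd79a (-3.97, SE 1.82) and Ms4a1 (-4.45, SE 2.10) on the log2 scale, with an adjusted p of 0.483 (edgeR). Without the 5 high tumors, 0 of 5 genes had an unadjusted p under 0.05 in the interactions, whose values ran from -0.81 to 1.36 for WT, and from 0.36 to 1.64 for FcD, where the median of the 6 genes had been -0.90.

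Further genes of the lineage were read from lists of known function. Of 22 further B cell genes, 21 passed the filter and 0 were called in any of the 16 tests. Pou2af1, a coactivator of immunoglobulin genes, stood at 2.91 to 11.2 CPM in the 5 high tumors and 0 to 1.69 CPM in the others. Ebf1, an early B lineage factor that is also used by stromal and fat cells, did not separate them, with 1.29 to 11.6 CPM in the 5 and 0.486 to 8.36 CPM in the others. Against the isotype control, the median log2 fold change of the 21 genes was 1.02 with anti-TGF-β + anti-PD-1, against 0.02 for all genes, and 9 of 21 had an unadjusted p under 0.05, against 20.1% of all genes. The median was 1.04 with WT + anti-PD-1 (7 of 21, against 20.7% of all genes) and 1.13 with FcD + anti-PD-1 (3 of 21, against 16.6%), where no high tumor is in the group. With 1 mAb, it was 0.59 with anti-GARP:TGF-β1 WT (4 of 21, against 0.969%), 0.86 for anti-TGF-β (3 of 21, against 2.32%), 0.42 for anti-PD-1 (0 of 21, against 0.955%) and 0.32 with FcD (0 of 21, against 0.474%). Ptprc ran from 152 to 782 CPM with WT + anti-PD-1 and from 107 to 282 CPM with FcD + anti-PD-1, against 107 to 176 CPM in the isotype control. Of 8 T cell genes, 2 (median 0.95) and 1 (median 0.25) had an unadjusted p under 0.05 there. Library 77, the highest tumor for Cd22, is in the WT + anti-PD-1 group. The part of leukocyte number in these lists was not tested.

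Of 11 further plasma cell genes, 10 passed the filter. Xbp1, which drives the secretory pathway in plasma cells and in many other cells, was abundant and flat at 114 to 168 CPM in all 40 tumors. Tnfrsf17 (BCMA), a survival receptor of plasma cells, ran from 0.311 to 2.43 CPM and was 1.62 CPM in library 68. Only Cd38, an ectoenzyme of plasma cells and of many activated leukocytes, was called: it rose by 0.98 on the log2 scale with anti-PD-1 on average (SE 0.21, adjusted p = 0.0328, edgeR), where 0.589% of all genes were called. The call was lost without a filter on low counts (adjusted p = 0.0890) and held in 20 of 40 models that left out 1 mouse. In the same comparison, the log2 fold change of Ptprc was 0.54 (SE 0.21, adjusted p = 0.117), and the part of leukocyte number in Cd38 was not tested. Its highest tumor was library 77 (136 CPM), and libraries 47, 42, 70, 68 and 48 held 9.60, 16.5, 24.9, 43.9 and 65.3 CPM, both the lowest tumor and the fifth highest among them. Against the isotype control, 6 of 10 plasma cell genes had an unadjusted p under 0.05 with WT + anti-PD-1, 5 of them higher (20.7% of all genes). With FcD + anti-PD-1 it was 4 of 10, all higher (16.6%), and with anti-TGF-β + anti-PD-1 it was 1 of 10 (20.1%). With 1 mAb it was 0 of 10, against 0.474% to 2.32% of all genes. Of the plasma cell markers, which include Jchain, Mzb1 and Igkc, 0 of 5 tested did so in both combinations with anti-GARP:TGF-β1. There, 2 of 8 (WT) and 1 of 8 (FcD) T cell genes did, with median log2 fold changes of 0.95 and 0.25. The part of other leukocytes in these counts was not tested.

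Of 10 genes for the survival and attraction of B cells, 8 passed the filter. Cd40, through which T cells activate B cells and which macrophages and dendritic cells carry as well, rose by 0.58 with anti-PD-1 on average (SE 0.14, adjusted p = 0.0498, edgeR), and no other gene of the list was called in any test. This call was lost without a filter on low counts (adjusted p = 0.108) and narrowly with DESeq2's size factors, and it held in 11 of 40 models that left out 1 mouse. Cxcl13, the chemokine that leads B cells into follicles, stood at 3.11 to 11.4 CPM in the 5 high tumors and 0.139 to 5.66 CPM in the others, overlapping. Tnfsf13b (BAFF), a survival factor of B cells made largely by myeloid cells, was highest in library 77 (17.9 CPM) and was 3.10 to 8.69 CPM in the 5 high tumors. Among 7 immunoglobulin chains, all of which passed the filter, 0 were called. Igkc had a log2 fold change of 3.999 with anti-TGF-β + anti-PD-1 (SE 1.16, adjusted p = 0.127, edgeR), where library 68 held 93.3% of the group's sum and the mean without it was 5.597 ± 1.05 CPM (SD, n = 4) against 4.21 ± 3.70 CPM (SD, n = 5) in the isotype control. It ran from 1.02 to 24.9 CPM outside the 5 high tumors.

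Since 5 tumors stood apart, correlations over mice were read within the other 35. There, Pearson's r between pairs of the 6 genes ran from 0.094 (Cd79b and Pax5) to 0.72 (Ms4a1 and Cd79a), with a median of 0.43, and 9 of 15 pairs passed an adjusted permutation p of 0.05 (8 of 15 by Spearman's rho). Ms4a1 and Cd79a had r = 0.72 and rho = 0.73, and r was 0.65 without the 2 mice farthest from the median of Ms4a1. Jchain and Mzb1 had r = 0.66 and rho = 0.65, with r = 0.67 without the 2 farthest mice, and the adjusted permutation p of r was 0.00015 for both pairs. Pax5 passed only with Mzb1 (r = 0.39, adjusted permutation p = 0.0364, by rho 0.0541), and Cd79b only with Ms4a1 and Cd79a.

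Genes whose pattern over the 40 tumors was like that of a member were found among the 14760 genes by Spearman's rho, which is given as a description. Among the 3 closest to Ms4a1 was Fcer2a (0.86), and among those of Cd79a were Igkc (0.86) and Cr2 (0.84). The closest to Jchain and Mzb1 was Igkc (0.91 and 0.81), and the closest to Cd79b was Fcrla, an Fc receptor-like protein of B cells (0.82), followed by Hvcn1 and Gimap6. Over the 35 tumors, rho was 0.79 for Fcer2a with Ms4a1 and 0.89 for Igkc with Jchain, and it was 0.43 for Coch with Pax5, which had 0.60 over the 40. For Pax5 the closest were Ptprf (0.67), Coch and Enpep, an ectopeptidase known as a surface antigen of mouse pre-B cells and also made by other cells. By the mean rho over the 6 genes, the 10 closest included Igkc, Cr2, Blk, Pou2af1, Fcer2a, Cd22, Iglv1, H2-Ob and Ighd, from 0.73 (Igkc) to 0.65 (Ighd), or 0.61 and 0.49 over the 35 tumors.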

How the data were processed

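RNA of CT26 tumor fragments from 40 mice was sequenced from stranded, paired-end mRNA libraries. The authors aligned the reads to GRCm38 with STAR 2.5.3a, processed them with SAMtools 1.6 and HTSeq 0.9.1, and deposited the raw read counts per gene of 54087 genes without normalization; the annotation release and the strand setting of the counting are not given in the sources used here. All 40 columns were used and 0 were left out, and no table entry stands for unassigned reads. Spreadsheet dates replace 25 gene names, none of them used here.

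The filter filterByExpr of edgeR 4.0.16 (limma 3.58.1, R 4.3.3) left 14760 genes, whose library sizes were scaled with TMM, and the quasi-likelihood test with robust settings gave 16 comparisons from 1 model of 8 group means (2-sided, Benjamini-Hochberg over all genes, threshold 0.05). The normalization of the study, by DESeq2, is among the alternatives. Standard errors were taken as the log2 fold change over the root of F. Log2 CPM used a prior count of 2. Single genes were compared with 2-sided exact permutation tests, and correlations with 100000 permutations (numpy 2.4.6, scipy 1.17.1, pandas 2.3.3, Python 3.11.15). Alternatives were DESeq2 1.42.0 (size factors, and its test), no filter, the library part as a covariate, only the 2 compared groups, a prior count of 0.5, plain totals, and each mouse left out in turn. Leaving out the 5 tumors highest in lymph node stroma genes was chosen after seeing the data, as was the number 5. The methods were tested on simulated data.

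Replicates are separate mice. The 6 genes, the lists and the tests were chosen with earlier results of these data known. Named genes are the 6 members, Ebf1, Pou2af1, Ighm, Igkc, Xbp1, Tnfrsf17, Tnfsf13b, Cxcl13, any listed gene called, and the genes of most similar pattern (3 per member and 10 by the mean). Cd22, Ptprc, Siglech and the stroma genes were named after their values were seen. Some genes that this rule or the lists hold are not reported here. Gene positions are from GENCODE M21, and promoter windows from RefSeq; proteins and the other 3 windows are not used here.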

Additional observations from a re-analysis of the deposited data

Results flagged for a closer look

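Among the 48 sets of 5 mice (6 genes in 8 groups), 6 held a mouse that lay apart from the other 4 by Dixon's ratio on log2 CPM, whose critical value for 5 is 0.71. Chance gives about 1 in 20 sets. In the anti-TGF-β + anti-PD-1 group, library 68 lay apart above the others for Pax5 (0.825), Cd79b (0.804), Jchain (0.772), Cd79a (0.725) and Ms4a1 (0.711). In the anti-GARP:TGF-β1 FcD group, library 70 lay apart above the others for Cd79a (0.872). Both are among the 5 tumors highest in lymph node stroma genes, and the cause was not tested.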

How the results depend on the processing

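No paired analysis was possible because the labels give no replicate numbers that pair mice across groups, and numbers were given in accession order. Depth limits Mzb1 most, with 1 to 15 reads in each of the 35 tumors outside the 5 high ones, and Ms4a1, with a median of 5.5 reads over all 40. The 6 genes gave 0 calls in 15 of 16 comparisons under every alternative run other than leaving out a mouse, while DESeq2's test called 1, Jchain, for any difference among the 8 groups. With each mouse left out, calls ran from 0 to 3 for anti-TGF-β + anti-PD-1 against the isotype control, from 0 to 1 for it against anti-PD-1, from 0 to 2 for any difference, and stayed at 0 in the other 13. Jchain was called for any difference without library 48 (adjusted p = 0.0362), library 50 (0.0446) or library 53 (0.0243, edgeR), Mzb1 also without library 53 (0.0364), and Jchain against anti-PD-1 without library 53 (0.0302) and against the isotype control without library 63 (0.0486). Pairs of genes that passed fell from 15 to 9 of 15 without the 5 stroma-high tumors, and were 14 of 15 (9 of 15 by Spearman's rho) within libraries 61 to 80. The causes were not tested.

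Calls over all genes moved more: for the average effect of anti-PD-1 from 87 to 39 with DESeq2's size factors, 0 without a filter, 385 with the library part, 860 with DESeq2's test, 2092 without the 5 tumors, and 0 to 2243 with a mouse left out; for any difference from 4 to 9, 35, 1256 and 171, and 0 to 2288; for anti-TGF-β + anti-PD-1 from 0 to 8 (only these groups in the model) and 139 (DESeq2) and up to 2006, and against anti-PD-1 from 1 to 0, 78 and up to 1734. For FcD + anti-PD-1, 14 (DESeq2), 17 (library part), 177 (only these groups) and 2 (without the 5 tumors) genes were called, and 19 against anti-PD-1 without the 5 tumors. For WT + anti-PD-1 against anti-PD-1, up to 538 were called with a mouse left out, and for the library parts 536 with DESeq2's test. Cd38 lost its call without a filter (adjusted p = 0.0890) and kept it in 20 of 40 fits without a mouse, and Cd40 lost it without a filter (0.108) and just so with DESeq2's size factors, and kept it in 11 of 40.

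Without the 5 tumors, where Mzb1 was not tested, some log2 fold changes of the other 5 members changed sign. Against the isotype control these were Cd79b with FcD (-0.43) and anti-TGF-β (-0.41), and Cd79a with anti-PD-1 (-0.20). Against anti-PD-1 these were Ms4a1 (1.56), Cd79a (1.22) and Pax5 (0.22) with WT + anti-PD-1, Ms4a1 (1.48), Cd79a (1.66) and Cd79b (0.35) with FcD + anti-PD-1, and Cd79b (-0.027) with anti-TGF-β + anti-PD-1.
With 1 mouse left out, ranges that crossed 0 against the isotype control were -0.43 to 0.67 (Cd79b) and -0.031 to 1.42 (Mzb1) with FcD, -0.41 to 1.02 (Cd79b) with anti-TGF-β, and -0.20 to 2.90 (Cd79a) and -0.27 to 1.37 (Mzb1) with anti-PD-1. Against anti-PD-1, in the order Ms4a1, Cd79a, Cd79b, Pax5, Jchain and Mzb1, they were -1.71 to 1.56, -1.94 to 1.21, -0.72 to 1.38, -0.65 to 0.22, -0.68 to 1.14 and -0.94 to 0.69 with WT + anti-PD-1, and -1.93 to 3.63, -1.63 to 3.98, -0.55 to 1.58, -0.52 to 1.24, -0.17 to 4.16 and -0.65 to 3.97 with anti-TGF-β + anti-PD-1. With FcD + anti-PD-1 they were -1.36 to 1.48 (Ms4a1), -1.17 to 1.66 (Cd79a), -0.57 to 0.35 (Cd79b), -0.16 to 0.71 (Pax5) and -0.21 to 1.40 (Mzb1). Levels moved by less than 1 SD with plain totals in all 8 groups.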
